A study of Homo sapiens with 6 samples.

Results

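The negative feedback genes of MAPK signalling described here are 10 genes: 5 dual-specificity phosphatase genes (DUSP1, DUSP4, DUSP5, DUSP6 and DUSP10), the Sprouty genes SPRY2 and SPRY4, the Sprouty-related genes SPRED1 and SPRED2, and PHLDA1. They were chosen by gene symbol from a table of 32896 genes, and each symbol matched 1 row. All 10 passed the filter on low values, which left 11139 genes for testing. The levels come from RNA-seq of BHT101, an established line from a human anaplastic thyroid carcinoma. Libraries were made 48 h after lipid transfection with a control plasmid (3 libraries) or with a plasmid for SK4 (3 libraries), the calcium-activated potassium channel encoded by KCNN4. The question of the series was what acts downstream of this channel. Both groups are transfected cells of the same line, and the treatment label of control replicate 3 names BHT102 where its other labels name BHT101.

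MAPK pathways carry signals from growth factor receptors and stress to the nucleus through the kinases ERK, p38 and JNK. Active kinases switch on genes that in turn restrain them. Dual-specificity phosphatases remove the activating phosphates from the kinases themselves, whereas Sprouty and SPRED proteins act upstream, between the receptor and RAF. ERK output is often raised in thyroid carcinoma, and transcripts of some, but not all, of these feedback genes are widely read as a measure of it. Whether any difference described below reflects ERK output was not tested.

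The 5′ flank of DUSP1 is shown because its 3 SK4 values lay above its 3 control values and its known promoter elements can be read in the sequence. These are the 250 bases upstream of the start of the gene on the minus strand, chr5:172771196-172771445 (RefSeq, GRCh38.p14), with the matches to 3 motifs in capitals.
DUSP1 upstream: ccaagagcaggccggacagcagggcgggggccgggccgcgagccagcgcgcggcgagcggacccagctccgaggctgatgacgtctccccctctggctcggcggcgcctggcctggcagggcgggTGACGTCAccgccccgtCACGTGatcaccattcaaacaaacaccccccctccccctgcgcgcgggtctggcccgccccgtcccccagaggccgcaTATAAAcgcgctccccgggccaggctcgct
Motifs were searched on both strands. The cAMP response element, bound by CREB and ATF proteins, was searched as TGACGTCA. It begins 125 bases upstream of the start of DUSP1 and is in 1.65% of 35116 such windows. The second motif in capitals is an E-box, CACGTG, which begins 108 bases upstream and is in 6.34% of the windows. The third is a TATA box, TATAAA, which begins 30 bases upstream and is in 10.7% of them. The letters of an AP-1 site, TGACTCA, are not in the DUSP1 window and are in 4.20% of all windows. None of the matches overlap. RefSeq windows were found for 8 of the 10 genes (12 windows). Among the other 7 genes, 1 window of SPRED2 holds the TATA box letters and no other window holds any of these letters. DUSP10, whose SK4 values also all lay above its control values, is thus among the genes without a match. A match is a description of the letters and does not show binding.

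KCNN4 checked the labels. It held 8.26 to 8.52 FPKM (fragments per kilobase of gene, relative to the mapped fragments in that library) in the control libraries and 147.7 to 184.1 FPKM in the SK4 libraries. It was called higher (log2 fold change 4.23 ± 0.076 SE; limma, adjusted p = 8.83e-07; exact two-sided permutation p = 0.1, the smallest that 3 against 3 libraries allow). The threshold for a call was an adjusted p of 0.05 (Benjamini-Hochberg, over every tested gene), and fold changes are on the log2(FPKM + 0.5) scale, on which changes of low genes come out too small. The estimated depth was 29700000 to 38500000 fragments, lowest in control replicate 3. That library also stood apart in level: the median tested gene was 0.071 below its own mean of the 6 libraries on the log2 scale, against -0.020 to 0.038 in the other libraries. All 6 epithelial markers were present in every library (KRT19 at 217.4 to 258.5 FPKM), but of 8 thyroid follicular markers only HHEX reached 1 FPKM. TG and TSHR, which define follicular cells, were at 0.01 FPKM or less. Summed leukocyte markers reached 11.6 to 13.2 FPKM in the controls, against 10.5 to 11.1 FPKM with SK4, from CD3D, CD14, CD68 and ITGAM (the 4 of 11 that were tested), with PTPRC at 0.01 FPKM or less. CD3D alone separated the groups, at 4.76 to 5.65 and 3.31 to 4.3 FPKM. Summed fibroblast markers were at 24.5 to 29.8 and 25.2 to 34.3 FPKM, most of it LUM. PDGFRA was at 1.66 to 2.39 FPKM over the 6 libraries and COL1A2 at 0.02 FPKM or less. Summed endothelial markers did not exceed 0.44 FPKM. Whether the summed leukocyte level has a part in the values below was not tested.

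None of the 10 feedback genes was called higher or lower. Over all tested genes 0.00898% were called higher, which is KCNN4 alone, and 0.0% were called lower. Of the 10 genes, 6 had a positive and 4 a negative fold change, with a median log2 fold change of 0.031, against 57.9% positive and a median of 0.011 over all tested genes. Without control replicate 3 both medians were negative (-0.042 and -0.021), with 3 of the 10 and 39.0% of all tested genes positive, and without SK4 replicate 1 they were -0.0014 and -0.0049. The adjusted p was 0.99997 for each of the 10 (limma). In such bulk RNA, fewer cells expressing a gene and less of its RNA per cell cannot be told apart. At an unadjusted p below 0.05 stood 2 of the 10, DUSP1 and DUSP10, both higher, against 1.06% of all tested genes higher and 0.593% lower. In either direction 1.65% of all tested genes stood there, a smaller share than evenly spread p-values would give. DUSP1 and DUSP10 were also the members whose SK4 values all lay above the control values, which held for 3.53% of all tested genes. No member had all its SK4 values below its control values, against 1.81% of all tested genes. For all 10 the fold change had a 95% confidence interval within 1.5-fold up or down (96.8% of all tested genes), and also within 1.3-fold (84.4% of all tested genes). DUSP10 came closest to 1.3-fold, with an upper limit of 29.5%. Its interval passed 1.3-fold with a pseudocount of 0.1 (log2 fold change 0.23 ± 0.072 SE) and without control replicate 2 (0.27 ± 0.065 SE).

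**Figure D1:**
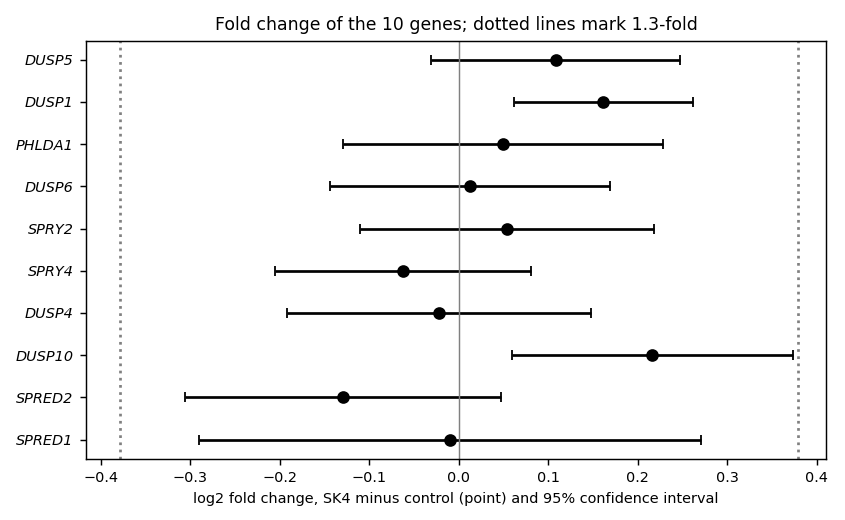
Log2 fold change of each feedback gene (x axis, SK4 minus control, on the log2(FPKM + 0.5) scale) with its 95% confidence interval from limma, genes ordered from the highest level to the lowest. The intervals of DUSP1 and DUSP10 lie above 0 before adjustment, and all 10 lie between the dotted lines at 1.3-fold.

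The levels spanned a wide range. DUSP5 was the most abundant at 66.9 ± 4.94 FPKM in the control libraries (SD, n = 3), a level above that of 94.6% of the tested genes over the 6 libraries. DUSP1 came next at 28.6 ± 0.418 FPKM. PHLDA1 and DUSP6 followed with overlapping control ranges, and SPRY2 stood by itself at 9.79 ± 0.695 FPKM. SPRY4, DUSP4, DUSP10 and SPRED2 then formed a run in which each control range overlapped the next, and SPRED1 was lowest at 3.51 ± 0.538 FPKM. In the SK4 libraries the order was the same at the top. DUSP10 there stood above SPRY4 and DUSP4 without overlap, having been below both by mean in the control libraries. FPKM is per length of gene, so these levels can be set side by side, as far as the authors' gene lengths hold.

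**Figure D2:**
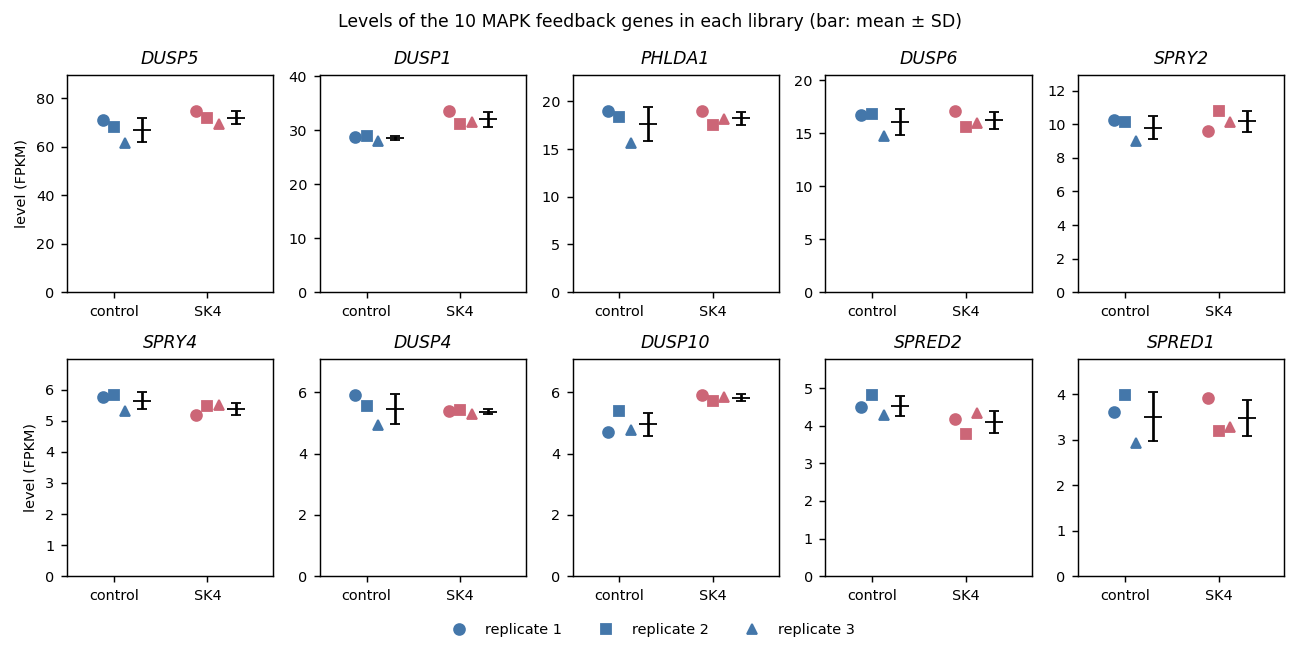
Level of each of the 10 genes (y axis, FPKM, starting at 0) in the 3 control libraries (blue) and 3 SK4 libraries (red), with marker shapes for the replicate number and a bar for the mean ± SD. In the DUSP1 and DUSP10 panels the red points all lie above the blue ones, and in the other 8 panels the groups overlap.

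DUSP1 encodes a nuclear phosphatase that is induced within minutes of a stimulus and acts on p38, JNK and ERK. It held 28.78, 28.86 and 28.1 FPKM in control replicates 1 to 3 and 33.6, 31.08 and 31.44 FPKM in SK4 replicates 1 to 3. The control values were close together and all SK4 values stood above them. The fitted difference was 11.8% (95% confidence interval 4.36% to 19.9%; log2 fold change 0.16 ± 0.043 SE; limma, unadjusted p = 0.00621, adjusted p = 0.99997). The exact two-sided permutation p was 0.1, the smallest possible. The spread of the control libraries, a coefficient of variation of 1.46%, was below the largest counting error estimated for this gene in any library, 2.44%. Its spread within groups was smaller than that of most tested genes (at 15.0% of the ranking). DUSP1 (ENSG00000120129) is a gene of 4 exons on chromosome 5, minus strand, from 172768090 to 172771195 (GRCh38).

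DUSP10 encodes a phosphatase that prefers p38 and JNK over ERK. It held 4.71, 5.39 and 4.76 FPKM in the control libraries and 5.92, 5.71 and 5.85 FPKM in the SK4 libraries. The SK4 values were close together, and control replicate 2 came nearest to them. The fitted difference was 16.2% (95% confidence interval 4.24% to 29.5%; log2 fold change 0.22 ± 0.067 SE; limma, unadjusted p = 0.0133, adjusted p = 0.99997; exact two-sided permutation p = 0.1). It was the largest of the 10 in size. At this level the gene rests on an estimated 412 to 653 fragments a library, the fewest of the 10, and counting error reaches 4.93%. DUSP10 (ENSG00000143507) is on chromosome 1, minus strand, from 221701424 to 221742176.

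For the other 3 phosphatase genes the groups overlapped. DUSP6, the cytoplasmic ERK phosphatase (chromosome 12, minus strand, 89347232 to 89353271), held 16.72, 16.85 and 14.69 FPKM in the control libraries and 17.11, 15.54 and 16.0 FPKM in the SK4 libraries. The highest of the 6 values was that of SK4 replicate 1 and the lowest that of control replicate 3, and the interval of the difference ran from -9.49% to 12.5% (log2 fold change 0.013; limma adjusted p = 0.99997). DUSP5, a nuclear phosphatase selective for ERK (chromosome 10, plus strand, 110497838 to 110511544), held 70.93, 68.3 and 61.37 FPKM and then 74.8, 72.02 and 69.23 FPKM. Its lowest control value was that of replicate 3, and the lowest SK4 value lay between the control values (log2 fold change 0.11, interval -2.09% to 18.7%). DUSP4, a nuclear phosphatase (chromosome 8, minus strand, 29333064 to 29350668), held 5.92, 5.55 and 4.95 FPKM in the control libraries. Its SK4 values of 5.39, 5.44 and 5.28 FPKM all fell within that control range (log2 fold change -0.022, interval -12.4% to 10.8%). Without control replicate 3 the log2 fold change was 0.048 for DUSP5 and -0.049 for DUSP6, and without control replicate 1 that of DUSP4 was 0.032.

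Ratios between members within a library do not depend on how the library was scaled. The ratio of DUSP1 to DUSP6 was 1.72, 1.71 and 1.91 in the control libraries and 1.96, 2.00 and 1.97 in the SK4 libraries, so control replicate 3 came close to the SK4 values. The ratio of DUSP10 to SPRY4 was 0.818, 0.925 and 0.895 in the control libraries and 1.15, 1.05 and 1.06 in the SK4 libraries, without overlap. By contrast the ratio of DUSP1 to DUSP5 overlapped, at 0.406 to 0.458 and 0.432 to 0.454. The ratios of DUSP10 to DUSP6 and of DUSP10 to DUSP4 also had no overlap, and that of SPRED1 to SPRED2 overlapped. Even SPRY2 to SPRY4 had none (1.69 to 1.78 and 1.85 to 1.98), although the groups overlapped for each of these genes. These pairs were chosen after the values were seen, and no test was made of them. The share of all gene pairs without overlap was not computed.

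SPRY2 and SPRY4 encode Sprouty proteins, which are phosphorylated after receptor activation and block the route from receptor to RAS and RAF. SPRY2 (chromosome 13, minus strand, 80335976 to 80340951) held 10.24, 10.14 and 8.99 FPKM in the control libraries and 9.58, 10.8 and 10.15 FPKM in the SK4 libraries. The highest and the lowest value thus came from different groups, but the groups overlapped (log2 fold change 0.054, interval -7.35% to 16.3%). SPRY4 (chromosome 5, minus strand, 142310427 to 142326455) held 5.76, 5.83 and 5.32 FPKM and then 5.17, 5.46 and 5.5 FPKM. Here the 2 highest values were controls, with control replicate 3 among the SK4 values (log2 fold change -0.062, interval -13.2% to 5.77%). Without control replicate 3 the log2 fold changes were -0.0034 for SPRY2 and -0.10 for SPRY4.

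The SPRED proteins bind neurofibromin and bring it to the membrane, where it switches RAS off. SPRED2 (chromosome 2, minus strand, 65310851 to 65432637) held 4.49, 4.82 and 4.29 FPKM in the control libraries and 4.19, 3.77 and 4.35 FPKM in the SK4 libraries. It had the most negative fold change of the 10, with the groups overlapping by 1 value (log2 fold change -0.13, interval -19.1% to 3.31%; limma unadjusted p = 0.128, adjusted p = 0.99997). SPRED1 (chromosome 15, plus strand, 38252326 to 38357249) held 3.62, 3.99 and 2.93 FPKM and then 3.93, 3.2 and 3.29 FPKM. Its coefficient of variation was 15.3% in the control and 11.5% in the SK4 libraries, the widest of the 10, where counting error reaches 3.73% (log2 fold change -0.010, interval -18.2% to 20.6%). Without SK4 replicate 2 the log2 fold change of SPRED2 was -0.076. The sign of the SPRED1 difference turned without control replicate 1 or 2 and without SK4 replicate 2 or 3.

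PHLDA1 encodes a pleckstrin homology-like protein whose transcript is induced through ERK. The gene (chromosome 12, minus strand, 76025447 to 76033932) held 19.01, 18.32 and 15.63 FPKM in the control libraries and 18.94, 17.55 and 18.19 FPKM in the SK4 libraries. All SK4 values lay inside the control range (log2 fold change 0.049, interval -8.60% to 17.1%), and without control replicate 3 the log2 fold change was -0.034. The antisense gene AC011611.3, at 2.98 to 3.97 FPKM, shares 553 exonic bases with PHLDA1, and AC024909.2, at 0.23 to 0.43 FPKM, shares 1875 with DUSP6. The libraries keep the strand, but the sources used here do not say whether the counting used it, so both levels are uncertain to that extent.

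Control replicate 3 stood apart for the members as it did for all tested genes. Control replicate 3 was the lowest of the 6 libraries for 7 of the 10 genes, as it was for 47.1% of all tested genes, and every member lay below its own mean there. The median deviation of the 10 genes in it was -0.14 on the log2 scale, against -0.071 over all tested genes. In SK4 replicate 1 the median deviation of the members was 0.081, against 0.038. The 5 DUSP genes summed to 122 ± 7.09 FPKM (SD, n = 3) with the control plasmid and 131.5 ± 4.74 FPKM with SK4, and the 4 Sprouty and SPRED genes to 23.5 ± 1.72 and 23.1 ± 0.227 FPKM. DUSP5 makes up most of the first sum. With each library centred on its median, the log2 fold changes were 0.15 for DUSP1, 0.21 for DUSP10, 0.0019 for DUSP6 and -0.14 for SPRED2. After quantile normalization they were 0.14, 0.20, 0.0022 and -0.14. Without control replicate 3 and SK4 replicate 2 together they were 0.17, 0.21, -0.020 and -0.11.

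**Figure D3:**
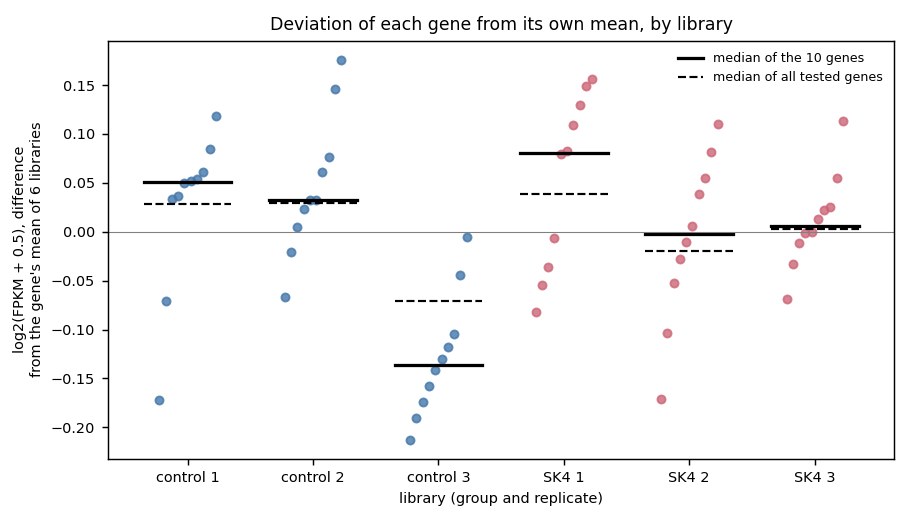
Difference of each of the 10 genes from its own mean over the 6 libraries (y axis, log2(FPKM + 0.5)), by library (x axis), controls in blue and SK4 in red. Solid bars mark the median of the 10 genes and dashed bars that of all tested genes, and in control replicate 3 all 10 points lie below 0, with a median of -0.14.

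The other genes of the pathway were taken as 6 lists of 80 genes, of which 64 were tested and 0 were called (limma). At an unadjusted p below 0.05 stood 2, JUNB and MAFF, against 1.65% of all tested genes. Of the 64, 7 had every SK4 value higher than every control value and 1 had each of them lower, against 3.53% and 1.81% of all tested genes. The transcriptional targets of ERK signalling had 20 of 22 tested members with a positive fold change and a median of 0.049, with 4 members entirely above the controls (JUN, JUNB, MAFF and VGF), against 57.9% positive, a median of 0.011 and 3.53% entirely above over all tested genes. Control replicate 3 was the lowest library for JUN, MAFF and VGF, as for 47.1% of all tested genes. Without it 14 of the 22 were positive and their median was 0.026, against 39.0% positive and -0.021 over all tested genes. JUNB, an AP-1 subunit, held 119.1 ± 2.08 FPKM with the control plasmid and 125.7 ± 2.52 FPKM with SK4. IER3, an early response gene of similar level, held 123.5 ± 4.91 and 125.2 ± 4.15 FPKM. The largest fold change in size of this list was that of FOSB, another AP-1 gene, whose groups overlapped (2.12 ± 0.112 and 2.53 ± 0.318 FPKM, log2 fold change 0.20, limma adjusted p = 0.99997).

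No other phosphatase or Sprouty gene was called. Among 9 tested MAPK phosphatase and atypical dual-specificity phosphatase genes, 6 were positive (median 0.046), and DUSP22, which acts on the JNK pathway, had the largest difference (3.02 ± 0.231 and 3.37 ± 0.0473 FPKM, log2 fold change 0.14). All SK4 values of DUSP22 lay above its control values, against 3.53% of all tested genes. The most abundant were STYXL1, a catalytically inactive relative (28.1 ± 0.476 and 28.6 ± 0.942 FPKM), and DUSP14 (15.6 ± 0.567 and 16.2 ± 0.0611 FPKM). Of 4 tested Sprouty, SPRED and PHLDA genes outside the 10, 3 were positive (median 0.034). PHLDA2 held 110 ± 1.27 and 113.6 ± 6.84 FPKM, PHLDA3 8.52 ± 0.502 and 8.66 ± 0.517 FPKM, and SPRY1 3.66 ± 0.664 and 3.92 ± 0.156 FPKM.

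None of the kinase genes on which the feedback acts was called. Of 11 tested RAS, RAF, MEK and ERK genes 8 were positive, with a median of 0.022. The MEK genes MAP2K2 and MAP2K1 held 37.6 ± 1.295 and 38.6 ± 0.978 FPKM, and 21.1 ± 1.10 and 21.4 ± 0.373 FPKM, and the MEK scaffold gene LAMTOR3 5.61 ± 0.689 and 5.89 ± 0.408 FPKM. Of 10 p38 and JNK pathway genes 5 were positive (median 5.12e-05). MAP2K3, a kinase that activates p38, held 16.6 ± 0.336 and 17.7 ± 0.471 FPKM. Its SK4 values all lay above the controls, as did those of MAP2K7, which activates JNK (8.99 to 9.06 and 9.35 to 9.87 FPKM), against 3.53% of all tested genes. The p38 gene MAPK13 had all SK4 values below the controls (1.95 ± 0.0866 and 1.76 ± 0.0709 FPKM), against 1.81% of all tested genes, and in the p38 gene MAPK11 the groups overlapped (15.4 ± 0.640 and 14.5 ± 0.817 FPKM). The list of Sprouty and SPRED partners and of inhibitors had 2 of 8 positive (median -0.023). Not every partner in it is an inhibitor of RAS to ERK signalling. Its tested genes included PEBP1, which inhibits RAF (175.3 ± 5.23 and 169.9 ± 5.22 FPKM), and the EGFR inhibitor gene ERRFI1 (48.6 ± 6.31 and 47.7 ± 1.34 FPKM). The RAS GTPase-activating gene RASA1 held 1.17 ± 0.286 and 1.10 ± 0.151 FPKM.

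**Figure D4:**
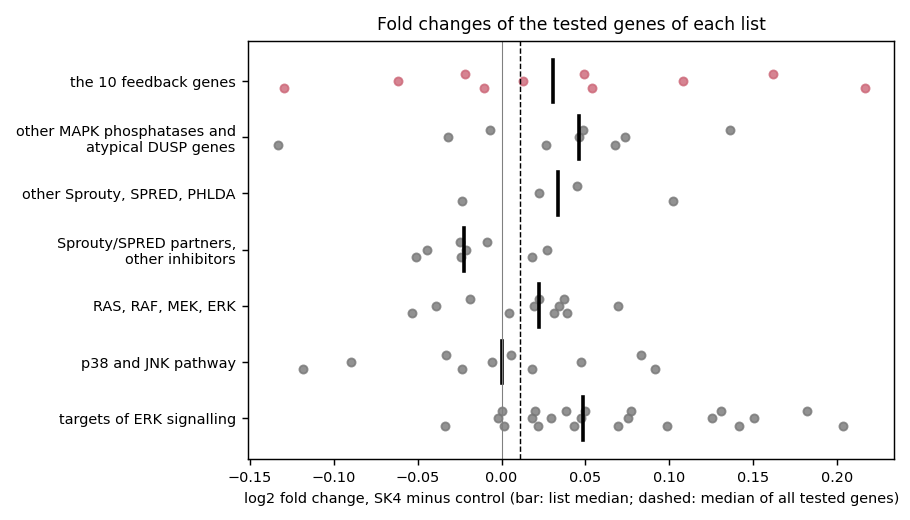
Log2 fold change (x axis, SK4 minus control) of each tested gene of the 10 feedback genes (red) and of the 6 other pathway lists (grey), with a bar at each list's median and a dashed line at the median of all tested genes, 0.011. List medians lie between -0.023 and 0.049, and DUSP10 is the highest point of all lists.

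The genes most like a member across the 6 libraries were sought by the root mean square difference between levels centred on each gene's mean. The search covered 5328 genes with a mean of at least 5 FPKM, after genes with clone-type names were left out. For DUSP1 these were MAFF, at 0.015 on the log2 scale, and PXDC1, at 0.021. MAFF held 5.01, 5.0 and 4.77 FPKM with the control plasmid and 5.77, 5.27 and 5.42 FPKM with SK4, with SK4 replicate 1 highest, as for DUSP1. For DUSP6 they were ATP1B3 at 0.0078 and FDX1 at 0.011, and for SPRY4 they were NOP9 at 0.012 and TIMELESS at 0.015. Over 6 libraries and so many genes some close neighbours are always found, and these are given as a description.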

How the data were processed

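Per the submitters' processing notes HISAT2 and GRCh38 were used; neither versions, a counting tool nor an annotation release is given in the sources used here. FPKM values were deposited by the authors rounded to 2 decimals, 1 column per library. Samples were grouped by title (3 control, 3 SK4), and the labels do not say whether cultures were separate; p-values therefore cover only sample-to-sample spread, possibly technical. Genes reaching 1 FPKM in 3 or more of the 6 libraries were tested on log2(FPKM + 0.5) with limma 3.58.1 (R 4.3.3; trended, robust prior variance; group as the only term; checked on simulated data). Polyadenylated RNA was sequenced. Depth was estimated from 561 single-exon genes shorter than 160 nt, as the depth at which most of their small values came to whole fragments. Of 170 to 206 values of up to 5 fragments a library, 99.4% to 99.5% were then whole (tolerance 0.1). That share is what the search maximised and is not a separate check. Fragments per gene used the exon lengths of GENCODE 29, which may differ from the authors'; these errors cover counting only. Members and lists were chosen with earlier results of these data known. Named were all members, KCNN4 and, from each list, the 2 most abundant tested genes, the one with the largest fold change in size, and any called gene; JUN, MAFF, VGF, MAP2K7 and the named markers were added after their values were seen. For 1 further gene chosen as a marker, no value is reported here. The alternatives covered the pseudocount, filter, scaling, library weights, prior variance, replicate number as a term, threshold and leaving out libraries.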

Additional observations from a re-analysis of the deposited data

How the results depend on the processing

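In all 17 alternative settings 0 of the 10 genes and 0 of the pathway list genes were called, and KCNN4 was called in each (log2 fold change 4.16 to 4.33). The stricter threshold of 0.01 could not add a call. That threshold, the other filters, the other prior variance and the replicate block also leave every fold change of the members as in the main fit. At an unadjusted p below 0.05, where 184 tested genes stood, the counts over settings included 133 with the replicate block, 419 without control replicate 3 and 905 with library weights. DUSP1 (0.13 to 0.18) and DUSP10 (0.18 to 0.27) kept a positive and SPRED2 (-0.17 to -0.076) and SPRY4 (-0.11 to -0.036) a negative log2 fold change throughout, and DUSP5 was between 0.028 and 0.15. The lowest adjusted p of a member in any setting was 0.426 (DUSP1, library weights, limma). The unadjusted p of DUSP10 was 0.0518 without control replicate 1, where that of DUSP5 was 0.0433; with the replicate block DUSP5 was at 0.0483 beside DUSP1 and DUSP10. The members' median was -0.042 to 0.076 over the fits without 1 library. Those fits gave -0.049 to 0.047 for DUSP6, -0.0034 to 0.095 for SPRY2, -0.034 to 0.10 for PHLDA1, -0.086 to 0.032 for DUSP4 and -0.12 to 0.075 for SPRED1, so these 5 have no stable sign; the cause was not tested. With library weights DUSP6, SPRY2 and PHLDA1 were at -0.041, -0.0020 and -0.018. Without control replicate 3 and SK4 replicate 2 together, a setting chosen after seeing the data, they were at -0.020, -0.045 and -0.0076, DUSP4 was at -0.095, and 3 genes were called higher and 1 lower, none of them a member. Same-numbered libraries did not consistently deviate together (correlations over genes of 0.31, -0.41 and -0.15), so the numbers were not taken to pair the samples. The highest correlation of any control with any SK4 library was 0.53, for control replicate 3 and SK4 replicate 2. Deviations from a group mean cancel within the group, so these correlations depend on one another. They cannot show whether samples shared a culture or batch. With the replicate block 1 gene was called higher and 0 lower, and the log2 fold changes were the same.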
